A study of Mus musculus with 6 samples.

Results

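The genes examined here build the MHC class I antigen presentation pathway: H2-K1, H2-D1 and H2-T23 (class I heavy chains), B2m (their light chain), Tap1, Tap2 and Tapbp (peptide transport and loading), Psmb8 and Psmb9 (immunoproteasome subunits) and Nlrc5 (a class I transactivator). They were chosen by name with earlier results of these data known. Their regions were chosen by measured values, because a region counts only if it entered at least 1 of the 2 peak lists that pass the irreproducible discovery rate (IDR) filter, one list pooled per genotype. A member region is a merged region of those lists that overlaps a gene body extended by 10 kb on both sides, and 41 of 66679 merged regions met this rule.

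The study used ATAC-seq, in which a transposase cuts open chromatin, on primary oviductal smooth muscle cells. The 6 libraries came from females of 8 to 12 weeks on day 2 (D2) of pregnancy, 3 labelled WT and 3 labelled Pbrm1 KO (Pbrm1 cKO below). The study describes its controls as Pbrm1 fl/fl and the Pbrm1 cKO mice as Pbrm1 fl/fl/PR-IRES-cre/+, by which both carried the floxed alleles and only the cKO mice carried Cre. This Cre line (B6.129S(Cg)-Pgr) is driven by the progesterone receptor promoter, so cells in which that promoter was never active keep Pbrm1. Pbrm1 encodes a subunit of the PBAF form of the SWI/SNF chromatin remodeler. Digested oviducts were filtered and plated for 4 h and then 2 h, and 50000 cells went into a library. The study calls the 3 libraries of a genotype biological replicates, but the labels name no animals, so p-values measure the spread between these libraries.

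Class I molecules carry peptides of a cell's own proteins to its surface, where CD8 T cells and natural killer cells read them. Immunoproteasomes cut proteins into peptides, the Tap1/Tap2 transporter moves them into the endoplasmic reticulum, tapasin (Tapbp) helps load them, and the heavy chain leaves for the surface only with beta-2 microglobulin (B2m) and a peptide. Nearly all nucleated cells express class I at a basal level, interferons raise it, and class I promoters are known for an NF-kB site beside an interferon-stimulated response element and, nearer to the start, a module read by RFX, CREB/ATF and NF-Y proteins, through which Nlrc5 acts.

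The following stretches are shown because they hold these elements in H2-D1, where the largest difference among the members was found, and in H2-K1 and B2m, where none passed the threshold. They come from RefSeq promoter windows of GRCm38.p6, which run from 250 bases before to 50 bases after a start and matched 8 of the 10 genes by symbol (Tap2 and Nlrc5 had no entry). Capitals mark exact matches, on either strand, to GGGNNTTCC (NF-kB-like), GAANNGAAA or GAAANNGAA (IRF-like, the core of an interferon response element), TGACG (CRE core) and CCAAT (read as ATTGG on the other strand), and no match overlaps another.
H2-D1, chr17:35262923-35262952, plus strand: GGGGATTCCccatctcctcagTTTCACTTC
H2-K1, chr17:34000429-34000458, minus strand: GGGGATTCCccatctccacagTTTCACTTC
H2-D1, chr17:35262993-35263022, plus strand: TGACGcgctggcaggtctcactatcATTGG
H2-K1, chr17:34000359-34000388, minus strand: TGACGcgcagtcagctcttacccccATTGG
B2m, chr2:122147609-122147638, plus strand: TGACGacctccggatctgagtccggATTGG
The first pair of stretches, from the NF-kB-like to the IRF-like match, is identical at 29 of 30 bases between H2-D1 and H2-K1. The second pair, from the CRE core to the inverted CCAAT box, is identical at 23 of 30 bases between H2-D1 and H2-K1. B2m shares 12 of 30 bases with H2-D1 there and 13 of 30 with H2-K1. All these counts include the motif letters at the ends, which were required to match. Between the motifs lie 12 bases in the first pair and 20 in the second.

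Of all 32851 promoter windows, 5.82% hold GGGNNTTCC, 7.52% hold GAANNGAAA, 8.56% hold GAAANNGAA, 20.8% hold TGACG and 37.4% hold CCAAT. The 30-base arrangement of the first pair occurs in 4 windows (0.0122%) and that of the second in 31 (0.0944%). Both counts include the window of H2-D1 and both windows of H2-K1. The motifs and their spacing were fixed to those seen in these genes, so the shares are no independent background. H2-D1 and H2-K1 hold both arrangements. The B2m window holds the second and also GAAANNGAA, in the upstream stretch chr2:122147437-122147685 on the plus strand, shown whole because both matches lie in it and no annotated exon does.
B2m upstream: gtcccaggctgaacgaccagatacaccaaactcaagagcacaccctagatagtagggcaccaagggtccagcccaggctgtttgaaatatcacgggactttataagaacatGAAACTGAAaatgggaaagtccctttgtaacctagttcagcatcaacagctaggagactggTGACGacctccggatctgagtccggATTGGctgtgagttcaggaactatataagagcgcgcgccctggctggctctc
Of the other windows, that of H2-T23 holds GAAANNGAA and CCAAT, those of Tap1 and Psmb9 hold TGACG and CCAAT, and that of Tapbp holds CCAAT. Psmb8 holds the palindromic STAT-like TTCNNNGAA, which 8.3% of windows hold, and none of the other letters. A match is a description of the letters, not evidence of binding. Other forms of these elements were not searched, so a missing match, at B2m or elsewhere, does not show that an element is absent.

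Each library was measured by its deposited relaxed peak list of about 300000 MACS2 entries. For each merged region the best −log10 p of an overlapping entry was ranked within the library over all 66679 regions, with rank 1 the most significant. The rank score is log2(number of regions / rank), so that a higher score means a stronger peak relative to the other regions of that library, and a difference of 1 is a change of rank by a factor of 2. Differences are Pbrm1 cKO minus WT, tested with limma over all regions with Benjamini-Hochberg adjustment and a threshold of 0.05. A second measure, added after the data were seen, was the number of tags at the summit worked out from each entry's fold and p, divided by the library median over the 62328 regions with an entry in all 6 libraries.

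Read totals were not in the files. The library medians of summit tags were 29, 26 and 16 in WT and 31, 27 and 28 in Pbrm1 cKO. WT 3 stood apart, with 3065 regions lacking an entry against 400 to 709 in the others. The H2-D1 promoter values are therefore also given without WT 3, but the tag calls at other regions are not. The Pbrm1 promoter region was present in both pooled lists with a difference of 0.07 ± 0.37 (SE, n = 3 per genotype), and an ATAC peak there does not measure the deletion. All 5 smooth muscle markers (Acta2, Myh11, Cnn1, Tagln and Des) had a promoter region with an entry in all 6 libraries, with summed rank scores of 6.08 to 7.08 in WT and 5.69 to 7.1 in Pbrm1 cKO. These are bulk samples, in which fewer cells with an open site and fewer open copies per cell cannot be told apart.

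The promoter of H2-D1, which encodes 1 of the classical class I heavy chains, gave a weaker ATAC-seq peak in the Pbrm1 cKO libraries. Its region, chr17:35262620-35263916 (GRCm38), is present in both pooled lists. It ranked 1031, 196 and 571 in the 3 WT libraries and 7006, 8332 and 5406.5 in the 3 Pbrm1 cKO libraries, so every WT library ranked it far above every Pbrm1 cKO library. The mean rank score fell from 7.10 ± 1.21 (SD, n = 3) to 3.29 ± 0.31 (SD, n = 3). The difference of -3.81 ± 0.60 (SE) had a limma adjusted p of 0.0206. Only 1 of 21555 promoter regions and 3 of all 66679 regions had a lower difference on this scale, which spreads the best ranks apart. Class I genes differ in sequence between H2 haplotypes, reads were mapped to 1 reference genome, and the haplotype of the animals is not given in the sources used here, so what a haplotype difference between the genotypes would do to these values was not tested.

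The peak height showed the same order. Summit tags were 145, 143 and 93 in WT and 85, 73 and 89 in Pbrm1 cKO, which do not overlap although WT 3 is the shallowest library. Relative to the library median they were 5.0, 5.5 and 5.81 in WT and 2.74, 2.7 and 3.18 in Pbrm1 cKO. The WT mean was thus 1.89-fold higher, a log2 difference of -0.92 ± 0.14 (SE) for Pbrm1 cKO with a limma adjusted p of 0.000712. In the pooled lists the region reached a −log10 p of 349.6 in WT and 205.9 in Pbrm1 cKO.

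The fold of the summit over its local background did not separate the genotypes, at 14.9, 18.1 and 15.2 in WT and 15.4, 13.2 and 15.4 in Pbrm1 cKO. MACS2 takes this background from the surrounding sequence, and the background worked out from fold and tags was 8.8, 6.96 and 5.18 tags in WT and 4.58, 4.61 and 4.84 in Pbrm1 cKO. Ranked by fold, the difference was -1.46 with a limma adjusted p of 0.25. In all 6 libraries the summits lay at -129 to -106 bases from the RefSeq start, between the stretches shown above, and inside the first exon of a longer GENCODE M21 transcript.

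The rank call depends on which library is left out. Leaving out Pbrm1 cKO 1, 2 or 3 ended it, at limma adjusted p values of 0.181, 0.171 and 0.121, while the difference stayed at -3.79, -3.66 and -3.97. In each of these fits 0 of all 66679 regions were called lower. Leaving out WT 2 also ended it at 0.0819 (difference -3.15), whereas it held without WT 1 (0.0497) and without WT 3 (0.0446, difference -3.92). The tag measure held in all 6 cases, with log2 differences of -1.0 to -0.87 and adjusted p values of 0.000655 to 0.0159 (0.000655 without WT 3).

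**Figure D1:**
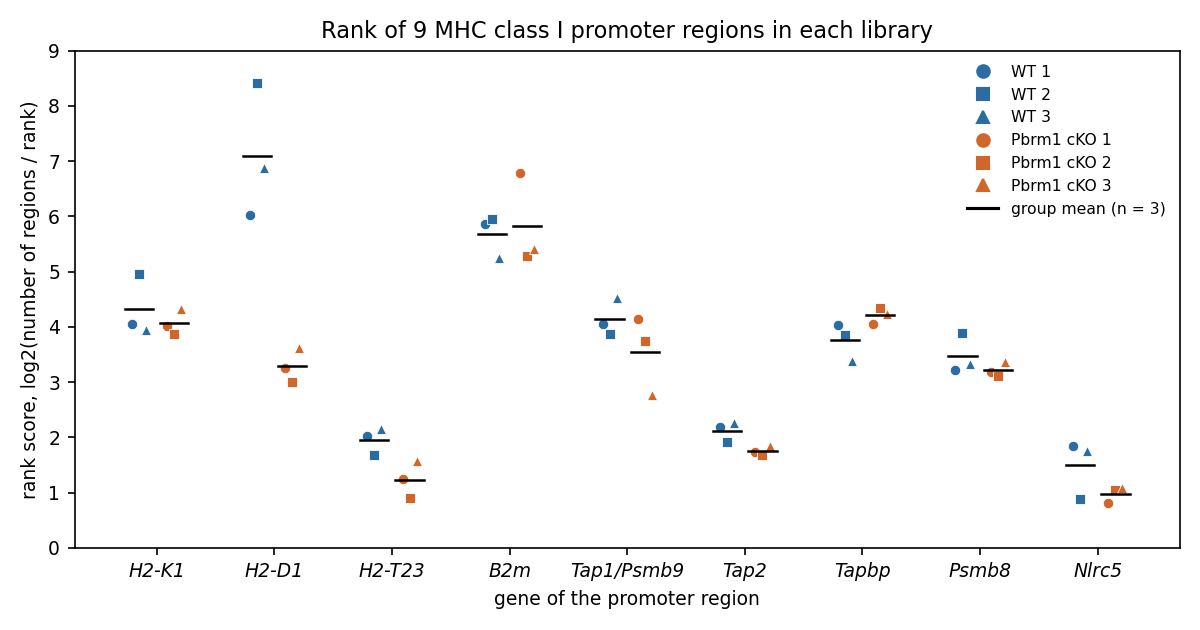
Rank score, log2(number of regions / rank), of the 9 promoter regions of the 10 genes in each library, with WT in blue, Pbrm1 cKO in orange and black lines for group means (n = 3). H2-D1 is the promoter with the widest gap between the genotypes, at means of 7.10 and 3.29, and B2m has the highest scores in Pbrm1 cKO.

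Across the 5 regions of the H2-D1 window, 3 were lower without overlap in Pbrm1 cKO, 1 was seen there only, and 1 did not separate the groups. Of all 66679 regions, 10.8% were lower and 10.6% higher without overlap. The window is described because it holds the called promoter. The intergenic region 4.8 kb before the start (chr17:35258190-35258475) ranked 16932, 12294 and 17910.5 in WT and 26239.5, 41029 and 35198 in Pbrm1 cKO. The region 11.8 kb after the start (chr17:35274821-35275063), beyond the end of the gene, ranked 16530.5, 16905.5 and 14167.5 in WT and 41707, 25028.5 and 45706.5 in Pbrm1 cKO. In both, each WT library ranked the region above each Pbrm1 cKO library.

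Their rank score differences of -1.12 ± 0.33 and -1.20 ± 0.33 (SE) did not pass the threshold (limma adjusted p 0.125 and 0.112). By tags relative to the library median they did: the first went from 2.35 ± 0.13 (SD) to 1.31 ± 0.169, 1.81-fold higher in WT with a limma adjusted p of 0.0123, and the second from 1.45 ± 0.208 to 0.786 ± 0.218, 1.87-fold higher in WT with 0.035. Of the 50-base windows of the second region 11.9% have an exact copy elsewhere in the genome, and its summit lies in such a window in 3 libraries, so reads from a copy could enter there.

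The region 7.1 kb after the start (chr17:35270035-35270304) had no entry in any WT library and ranked 47581, 54970.5 and 46003 in Pbrm1 cKO, on 18, 14 and 17 tags. It belongs to the Pbrm1 cKO list alone, so its direction follows from the rule. Its rank score difference was 0.43 ± 0.12 (SE) with a limma adjusted p of 0.116. The region 8.2 kb before the start (chr17:35254804-35254969) had relative tags of 0.724 to 0.885 in WT and 0.71 to 0.821 in Pbrm1 cKO, which overlap.

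**Figure D2:**
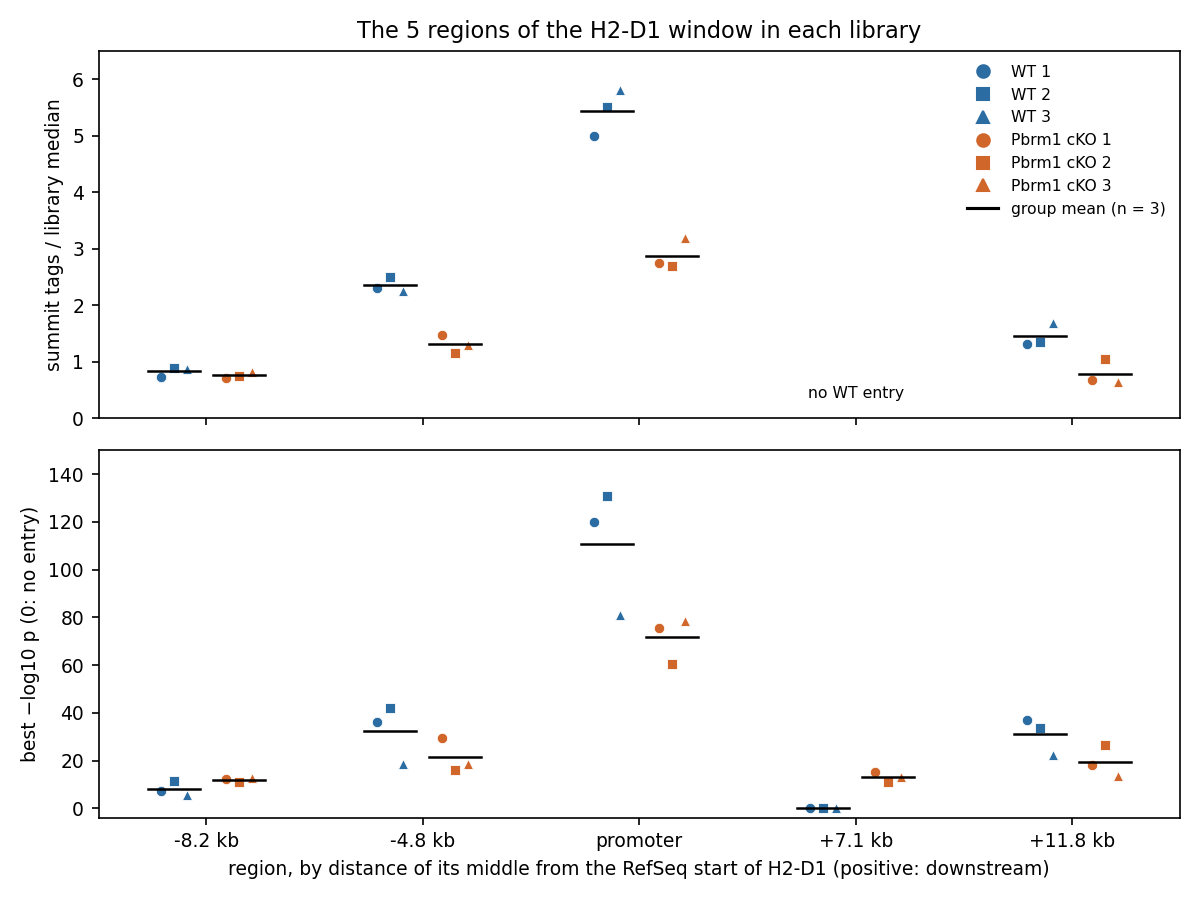
The 5 regions of the H2-D1 window by distance from the RefSeq start, with summit tags over the library median (top) and the best −log10 p (bottom, no entry drawn at 0) in each library, WT in blue, Pbrm1 cKO in orange and black lines for group means (n = 3). WT lies above Pbrm1 cKO in tags at -4.8 kb, at the promoter and at 11.8 kb, and the region at 7.1 kb has entries in Pbrm1 cKO only.

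The other heavy chains did not pass the threshold. H2-K1, the second classical chain, has its promoter region at chr17:33999448-34000749, which ranked 4022, 2150 and 4318 in WT and 4096.5, 4569 and 3305.5 in Pbrm1 cKO. The groups overlap, with a difference of -0.24 ± 0.44 (SE) and a limma adjusted p of 0.842. The 1 other region of its window, chr17:33991674-33992282, between genes, also overlapped between the genotypes (-0.46 ± 0.36, SE, limma adjusted p 0.571). Relative tags were 3.26 ± 0.236 (SD) in WT and 3.13 ± 0.198 in Pbrm1 cKO. The ratio of relative tags, WT over Pbrm1 cKO, was 1.04 for H2-K1 and 1.89 for H2-D1, and the difference between these ratios was not tested.

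H2-T23 encodes the nonclassical chain Qa-1, which presents leader peptides to natural killer receptors. Its promoter region, chr17:36031639-36032892, ranked 16444, 20746.5 and 15071.5 in WT and 28296, 35631 and 22503.5 in Pbrm1 cKO, so the groups do not overlap and all 3 Pbrm1 cKO ranks are worse. The difference of -0.71 ± 0.33 (SE) had a limma adjusted p of 0.296, and by tags, 1.39-fold higher in WT, one of 0.207. Of its windows of 50 bases 26.1% have an exact copy elsewhere in the genome, against 2.96% for H2-D1 and 4.87% for H2-K1, and 4 of the 6 H2-T23 summits lie in such a window but none of those of H2-D1 or H2-K1.

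The H2-T23 window also reaches its neighbours H2-T24 and H2-T22. The H2-T24 promoter region (chr17:36020370-36021022) went the other way, with ranks of 50044, 47326.5 and 50070.5 in WT and 34043, 29570.5 and 26801.5 in Pbrm1 cKO, a difference of 0.71 ± 0.26 (SE) and a limma adjusted p of 0.192. All 3 Pbrm1 cKO libraries ranked it above all WT libraries. A region beside the H2-T22 start (chr17:36042178-36042446) was 1.81-fold higher in WT by tags with a limma adjusted p of 0.0392, but 80.7% of its length matches a stretch near Gm7030 at 98% identity or more, and its summit lies in a copied window in all 6 libraries. Reads could therefore come from either place.

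The promoter of the light chain B2m had the best mean rank of the set over all 6 libraries, with 4.31% of promoter regions ranked better, although H2-D1 outranked it in all 3 WT libraries. Its region, chr2:122147404-122148193, ranked 1150, 1079 and 1748 in WT and 606, 1718 and 1569 in Pbrm1 cKO, which overlap. The difference was 0.14 ± 0.62 (SE) with a limma adjusted p of 0.943, and relative tags were 4.15 ± 0.134 (SD) and 4.42 ± 0.226. By tags the groups do not overlap, but the log2 difference of 0.09 ± 0.13 (SE) had a limma adjusted p of 0.794. The 3 regions elsewhere in its window lie at Trim69, the neighbouring gene, and none passed the threshold. The smallest p among them was at a Trim69 start, chr2:122160737-122160977, with a difference of 0.53 ± 0.27 (SE, limma adjusted p 0.339).

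Among the peptide supply genes no promoter passed it either. Tap1, one chain of the peptide transporter, and Psmb9, an immunoproteasome subunit, share 1 bidirectional promoter region (chr17:34186954-34188322), which ranked 4031, 4547 and 2881 in WT and 3777, 4991 and 9820 in Pbrm1 cKO. The groups overlap and the worst rank is that of Pbrm1 cKO 3, at a difference of -0.60 ± 0.44 (SE) and a limma adjusted p of 0.538. Psmb8, the immunoproteasome subunit next to it, differed by -0.25 ± 0.37 (SE) at chr17:34197335-34198190, with overlapping ranks of 4491.5 to 7138 in WT and 6472.5 to 7698 in Pbrm1 cKO.

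Tap2 encodes the partner of Tap1, and its best region, chr17:34204359-34204595, lies over a start inside the gene. It ranked 14745, 17724.5 and 13930 in WT and 20122, 20847.5 and 18581.5 in Pbrm1 cKO, without overlap. The difference was -0.37 ± 0.32 (SE) with a limma adjusted p of 0.618. The next region downstream, chr17:34205053-34205859, over a later Tap2 start, ranked 28865, 28924 and 31237.5 in WT and 55267, 54655 and 37114.5 in Pbrm1 cKO, also without overlap. It had the smallest p of the Tap1 and Tap2 windows, at a difference of -0.70 ± 0.27 (SE) and a limma adjusted p of 0.221.

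Tapbp encodes tapasin, which bridges the transporter and the heavy chain. Its best-ranked promoter region, chr17:33915730-33916250, covers the first GENCODE start of Tapbp and a start of Zbtb22, a neighbouring zinc finger gene, and its summits lay at -3541 to -3527 bases from the RefSeq start of Tapbp. It ranked 4055, 4617 and 6380 in WT and 4018, 3302 and 3554 in Pbrm1 cKO, so that all Pbrm1 cKO ranks are better, though WT 1 and Pbrm1 cKO 1 differ by little. The difference was 0.45 ± 0.41 (SE) with a limma adjusted p of 0.639.

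The region over the RefSeq start itself, chr17:33919381-33919745, was far weaker and went the other way. It ranked 32152, 28922 and 23645 in WT and 51910, 42653 and 31325.5 in Pbrm1 cKO, which overlap, and had the smallest p of the Tapbp window (-0.55 ± 0.30, SE, limma adjusted p 0.387). Of the 9 best-ranked promoter regions, those of Tapbp and B2m were the only ones with a higher mean score in Pbrm1 cKO.

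Nlrc5, the transactivator, had the worst mean promoter rank of the set, with 62.7% of promoter regions ranked better. That region, chr8:94433696-94434503, which also covers a start of 9330175E14Rik, ranked 18500.5, 36124.5 and 19699.5 in WT and 38133.5, 32204.5 and 31618 in Pbrm1 cKO, which overlap through WT 2. The difference was -0.52 ± 0.34 (SE) with a limma adjusted p of 0.473. A pair of neighbouring regions deep in the gene, chr8:94492067-94492283 in an intron and chr8:94492334-94492724 over an exon, outranked it in every library, with ranks between 6090 and 16496. The second of this pair had better ranks in all 3 Pbrm1 cKO libraries (6090 to 6996.5) than in WT (7829 to 13992.5), a difference of 0.60 ± 0.37 (SE) with a limma adjusted p of 0.442. The smallest p of the window was at an intron, chr8:94486001-94486202, weak in every library (-0.36 ± 0.14, SE, limma adjusted p 0.229). It entered through the WT list only, so its direction follows from the rule.

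**Figure D3:**
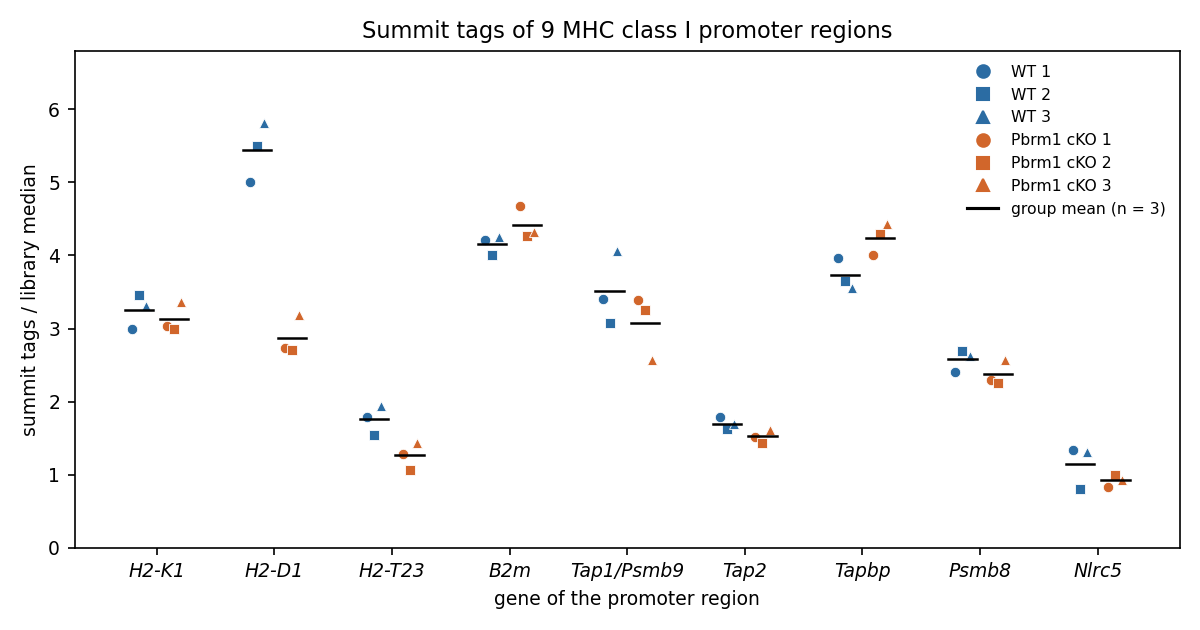
Summit tags over the library median at the same 9 promoter regions, by library, with WT in blue, Pbrm1 cKO in orange and black lines for group means (n = 3). At H2-D1 the WT libraries lie between 5.0 and 5.81 and the Pbrm1 cKO libraries between 2.7 and 3.18, and at H2-K1 both genotypes lie between 3.0 and 3.46.

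Over the 41 regions, 1 was called lower in Pbrm1 cKO and 0 higher by the limma test on rank scores, where 0.03% of all regions were called lower and 0.039% higher. At an unadjusted limma p under 0.05 there were 11, 9 of them lower (22%). Of all 66679 regions there were 10605, 5535 of them lower (8.3%). The groups did not overlap in 9 regions lower in Pbrm1 cKO (22%) and in 6 higher (14.6%), beside 10.8% and 10.6% of all regions. Among the lower is the Nlrc5 intron region chr8:94486001-94486202, from the WT list only. Among the higher are the region at 7.1 kb and chr8:94437064-94437252 in Nlrc5, both from the Pbrm1 cKO list only. The direction of these follows from the rule. On tags, 4 of the 39 regions with an entry in all 6 libraries were called lower and 0 higher, beside 1.22% and 1.15% of all such regions. Relative tags did not overlap in 8 regions lower (20.5%) and 6 higher (15.4%), beside 9.69% and 11.8%. The lower ones again include the Nlrc5 intron region of the WT list only. Of the 4 calls, 3 lie in the H2-D1 window and the fourth is the copied region beside H2-T22. On normal scores of the ranks, 2 members were called lower and 1 higher, beside 1.33% and 0.993% of all regions, all 3 in the H2-D1 window, and the higher one is the region at 7.1 kb, whose direction the rule fixed.

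The members as a whole leaned lower in Pbrm1 cKO. A lower mean score was found in 27 of 41 regions (65.9%, beside 49.9% of all regions), with a median difference of -0.25 beside 0.0. The 41 include 4 regions of the WT list only and 6 of the Pbrm1 cKO list only, where the rule favours the genotype of that list. Without WT 2 the members' median was -0.13. The interquartile range of the members ran from -0.52 to 0.14 and that of all regions from -0.27 to 0.26. Of the 9 promoter regions 7 were lower, with a median of -0.37 beside -0.04 over all 21555 promoter regions. These are descriptions, as the members share chromosome 17 for the most part and neighbouring regions are not independent.

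All 9 promoter regions and 31 of the 41 regions were in both pooled lists, 4 were in the WT list only and 6 in the Pbrm1 cKO list only. Of all 66679 regions, 46152 were in both, 8908 in the WT list only and 11619 in the Pbrm1 cKO list only. Of the WT-only regions, 3 of 4 lie in the Nlrc5 window and 1 at a later Psmb8 start, and the 6 Pbrm1 cKO-only regions are spread over the windows of H2-D1 (2), Tapbp, Tap2, B2m and Nlrc5. Among these 10, 9 had entries in libraries of both genotypes, the exception being the region 7.1 kb after the H2-D1 start.

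**Figure D4:**
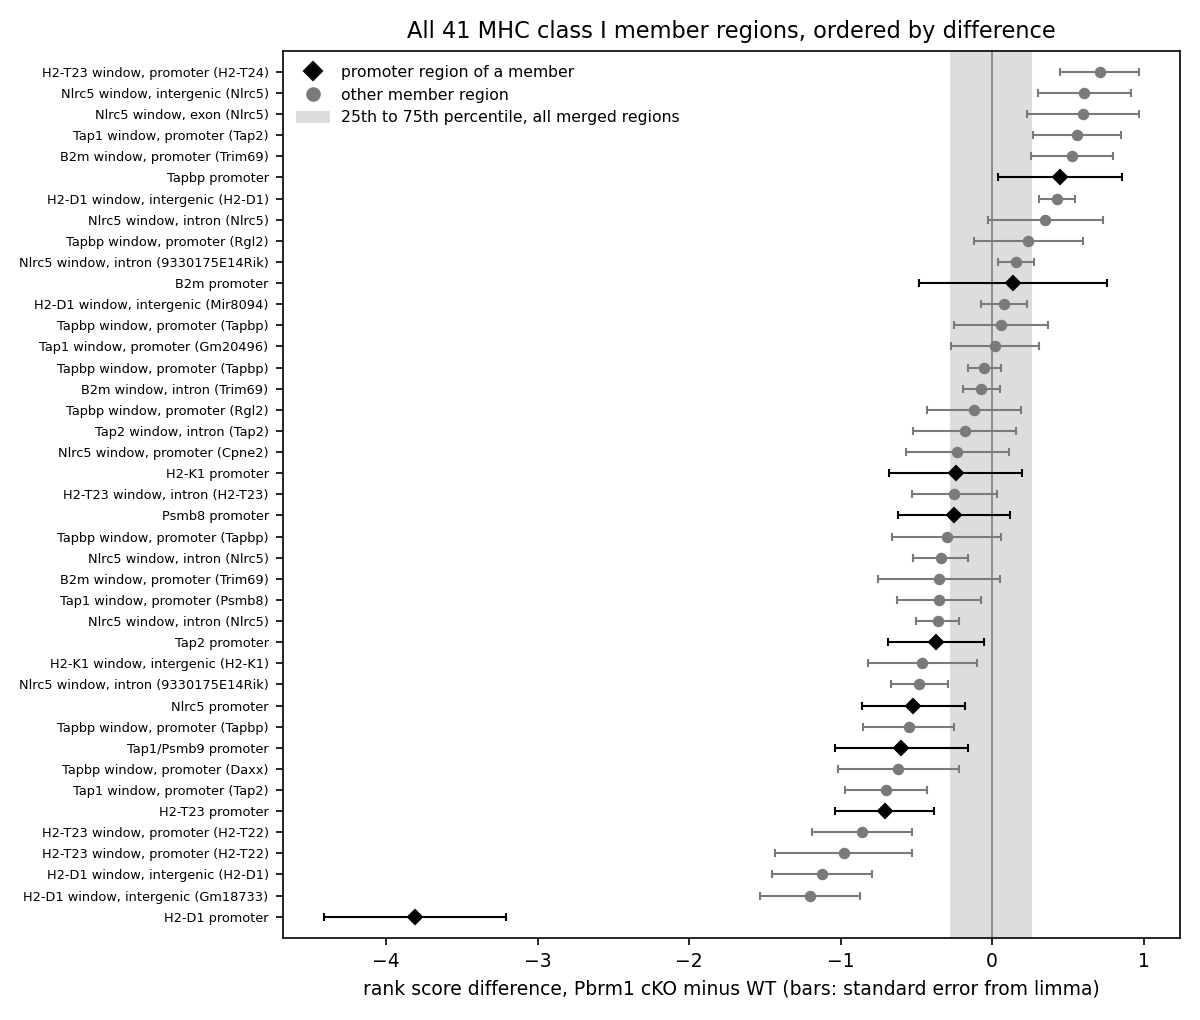
Rank score difference (Pbrm1 cKO minus WT) with its limma standard error for all 41 member regions, promoter regions as black diamonds, over a grey band for the 25th to 75th percentile of all merged regions (-0.27 to 0.26). On this scale the H2-D1 promoter stands alone at -3.81, followed by 2 other regions of its window at -1.20 and -1.12. By relative tags the log2 differences of these regions were -0.92, -0.91 and -0.86.

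The related gene lists were chosen with earlier results of these data known, and no promoter region in any of them was called by rank score. Of 20 other class I pathway genes 17 had a promoter region, 8 of them lower, with a median difference of 0.10. Within them H2-Q6 ranked 4430, 3797 and 5517.5 in WT and 8514, 7671 and 9222 in Pbrm1 cKO (-0.90 ± 0.37, SE, limma adjusted p 0.248), and H2-T10 ranked 22936, 31261 and 36476 in WT and 15857, 19312 and 19725.5 in Pbrm1 cKO (0.70 ± 0.32, 0.297). Both separate the genotypes, in opposite directions, as do H2-Q1 (lower, in the WT list only) and H2-T24 (higher). The groups thus did not overlap in 2 of 17 lower (11.8%) and 2 higher (11.8%), beside 10.2% and 6.64% of all promoter regions. The extremes of the list were H2-T22 at -0.98 and H2-Q7 at 0.99, both nonclassical heavy chains, whose groups overlap. H2-Q and H2-T genes are near-copies of one another, so their reads may be split between them.

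The constitutive proteasome subunits that Psmb8, Psmb9 and Psmb10 replace had a median of -0.72 over 3 promoter regions (Psmb5 -0.79, Psmb6 0.52). All 21 regulators of class I transcription had a promoter region, with a median of 0.06, 0 regions without overlap in either direction (beside 10.2% lower and 6.64% higher of all promoter regions), and extremes at Rfx5, which binds the class I module (0.82), and Ifnar1, a type I interferon receptor chain (-0.83). Of 26 interferon-induced genes 18 had a promoter region, with a median of -0.07. There the groups did not overlap at Ifit3 (-0.57), Ifi35 (-0.69) and Parp14 (-0.61), all lower in Pbrm1 cKO (3 of 18, 16.7%, beside 10.2%), and the largest positive difference was at Irf7 (0.54).

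Markers of other cells were also read in these lists, because leukocytes and epithelium express class I too. Of 12 leukocyte markers 2 (Cd68 and Csf1r) had a promoter region, with summed scores of 2.0 to 3.64 in WT and 1.93 to 2.49 in Pbrm1 cKO, and Cd3e and Cd79a, which define T and B cells, had no entry within 1 kb of a start in any library, while Ptprc, which marks all leukocytes, had one in 1 library. The class II genes of antigen-presenting cells had 5 of 9 (9.62 to 11.9 and 9.84 to 11.6), and Cd74 and Ciita, which had no promoter region, had an entry within 1 kb of a start in all 6 libraries. Endothelial markers had 4 of 5 (3.85 to 5.81 and 3.4 to 5.3). Epithelial markers had 1 of 7, Foxj1 (3.58 to 4.13 and 3.2 to 4.62), but Epcam, Pax8, Krt8, Krt18 and Cdh1 had an entry within 1 kb of a start in all 6 libraries and Ovgp1 in 5. Of the leukocyte markers, Lyz2, Fcer1g, Tyrobp and Laptm5 also had one in all 6. In each list the ranges of the genotypes overlap, and their part in the H2-D1 difference was not tested.

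Around the class I genes, from 33.8 to 36.2 Mb of chromosome 17, the H2-D1 promoter was 1 of 3 called regions, and these are all the calls on that chromosome. The other 2 were higher in Pbrm1 cKO and belong to no member window. One, chr17:33981100-33981717 over the start of CR974462.6, lies 14300 bp from H2-K1, just outside its window, and ranked 22150, 35297 and 37980 in WT and 3769, 7222 and 6352 in Pbrm1 cKO (2.47 ± 0.37, SE, limma adjusted p 0.0156). The other, chr17:35720114-35720722 near Ddr1, differed by 1.75 ± 0.32 (SE, limma adjusted p 0.0452). Among the 215 regions of this stretch that are not members, 7.91% were lower and 11.2% higher without overlap, against 10.8% and 9.82% on the rest of chromosome 17.

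**Figure D5:**
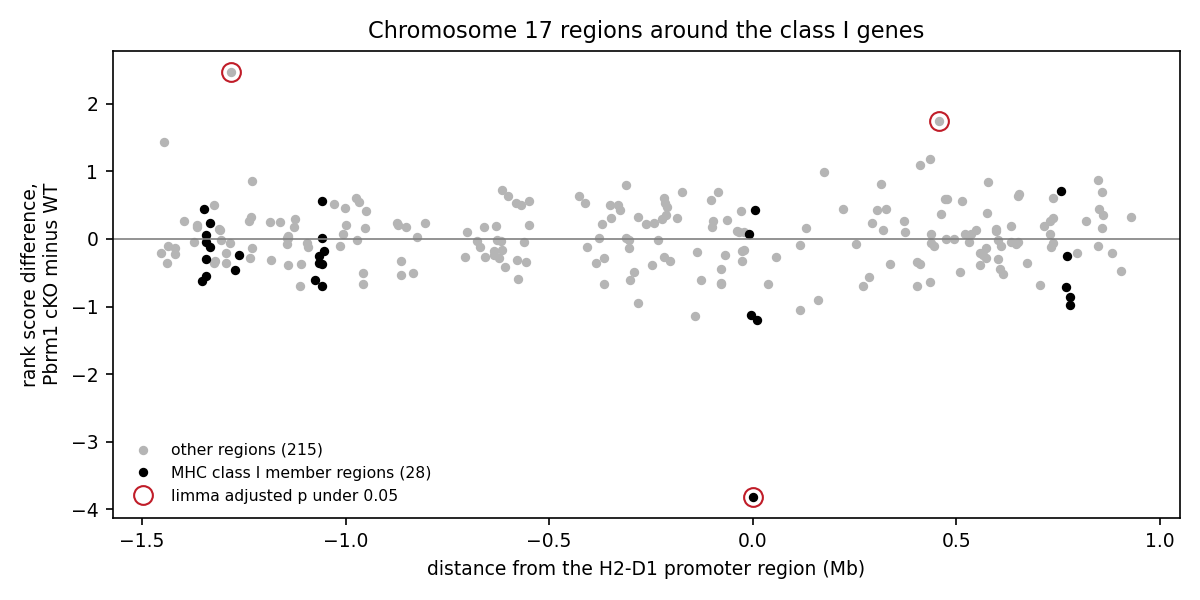
Rank score difference (Pbrm1 cKO minus WT) of the 243 merged regions between 33.8 and 36.2 Mb of chromosome 17 by distance from the H2-D1 promoter region, with member regions in black and calls at a limma adjusted p under 0.05 circled. The H2-D1 promoter at -3.81 is the lowest point and the other 2 calls lie above 0, at 2.47 and 1.75.

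At the edges of the windows, the farthest members were the H2-T22 promoter region, 9780 bp beyond the H2-T23 body (-0.98), the Psmb8 promoter region, counted for Psmb9 at 9571 bp, and the Tap1/Psmb9 region, counted for Psmb8 at 9399 bp. Just outside the Psmb9 window lay a later Psmb8 region, 10476 bp beyond Psmb9 (-0.35), which is a member through Tap1, Tap2 and Psmb8. Outside all windows lay a region near Pfdn6, 10954 bp beyond Tapbp (0.50), and one near Trim69, 11294 bp beyond B2m (0.06). By the Euclidean distance of the 6 rank scores over 21555 promoter regions, those most like H2-K1 were at Ganc (0.45), Stoml1 (0.46), Med9os (0.5), Cdc45 (0.5) and Abcc5 (0.51).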

How the data were processed

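Open chromatin was measured by ATAC-seq in 6 libraries of D2 primary oviductal smooth muscle cells (3 WT, 3 Pbrm1 cKO). The authors made the files with version 1.9.0 of ENCODE's pipeline for ATAC-seq (study methods), and the submitters' processing notes name cutadapt, Bowtie2, MACS2 and GRCm38.p5. The authors deposited MACS2 peak lists: per library up to 300000 entries at a p of 0.01, and per genotype 1 conservative list pooled over libraries at an IDR of 0.05. The deposited columns hold a score, the fold (ratio) of the summit over local background, its −log10 p and −log10 q, and the summit position. A cap on entries makes depth relative, so values were compared as ranks. Counts per region were not used here, so no count test was run.

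Both conservative lists were merged by overlap (66679 regions). Ranks of the best −log10 p were log2-transformed and tested with limma 3.58.1 (trend) in R 4.3.3 over all regions, regions with no entry at the lowest rank. Summit tags were solved from fold and p, and 100% came out whole within 0.05 in every library. Their limma fit on log2 values was added after the data were seen. Genes and starts are from GENCODE M21, and a promoter region lies within 1 kb of a start. Copies were sought with BLAST+ 2.17.0 (at least 98% over 50 bp) and by exact windows of 50 bases.

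The members, lists and alternatives were chosen with earlier results of these data known. Named by rule were all 10 genes with their best promoter region, the region of smallest p in each window, any called region, the extremes of each list, and the 5 promoters nearest to H2-K1. The region pairs at H2-D1, in Nlrc5 and at H2-T22, the region chr8:94437064-94437252, and H2-Q1, H2-Q6, H2-T10, Ifit3, Ifi35 and Parp14, were named after their values were seen.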

Additional observations from a re-analysis of the deposited data

How the results depend on the processing

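Under 15 other settings, and 8 more chosen after the data were seen, the median difference over the member regions stayed below 0, at -0.13 without WT 2 and -0.12 on tags. Called lower and higher were 2 and 1 on normal scores (1.33% and 0.993% of all regions) and 4 and 0 on tags (1.22% and 1.15%). They were 0 and 0 when ranked by fold (0.0015% and 0.009%). Leaving out each library gave 0 to 1 lower and 0 higher on ranks, beside 0% to 0.0285% and 0.003% to 0.009% of all regions. On ranks, 0 of all regions were called lower without Pbrm1 cKO 1, 2 or 3. On normal scores it gave 1 to 2 lower and 0 to 1 higher, beside 0.163% to 1.3% and 0.063% to 1.36%. The second lower and the higher call on normal scores were the H2-D1 regions at 11.8 kb (-0.88, limma adjusted p 0.0404) and 7.1 kb (1.71, 0.0111), the latter with its direction fixed by its place in the Pbrm1 cKO list only. On normal scores the H2-D1 promoter was called with each of the 6 libraries left out. By fold, H2-K1 (0.30), Psmb8 (0.17) and B2m (-0.19) changed sign, none of them called. Leaving out each library gave -0.43 to 0.08 for H2-K1, above 0 without WT 2 (0.08), and -0.34 to 0.41 for B2m, below 0 without WT 3 (-0.08) or Pbrm1 cKO 1 (-0.34). The cause was not tested. At an IDR of 0.01, 26 regions were shared, 6 in the WT list only and 3 in the Pbrm1 cKO list only, so that the larger of the last 2 counts changed genotype. Without flanks 17 were shared, 3 in WT only and 3 in Pbrm1 cKO only. The replicate numbers share only a number (correlations of deviations of -0.00283, -0.0548 and 0.00933). A replicate block gave 1 lower and 0 higher (limma adjusted p 0.00496 at H2-D1), with 64 lower and 66 higher over all regions, where 20 and 26 were called without it. Read totals were not in the files, and WT 3, at a median of 16 tags, is the shallowest library by that measure.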

Other observations

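Of the class II genes in the same stretch of chromosome 17 none was called by the limma test on rank scores. H2-Aa, which encodes the class II alpha chain I-A, differed by 0.61 ± 0.36 (SE, limma adjusted p 0.422) and H2-Eb1, the beta chain I-E, by -0.66 ± 0.38 (0.414), each with overlapping libraries. H2-DMa, which helps load class II peptides, had the best ranks of that list, 3091 to 7592 in Pbrm1 cKO and 4318 to 7993 in WT. Of the interferon-induced genes Parp14 was in the WT list only, so that its direction follows from its entry through that list, and had ranks of 47194.5, 47900 and 31491 in WT and 62725, 64841 and 62136 in Pbrm1 cKO.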
